A study of Mus musculus with 18 samples.

Results

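Epidermal cells from papillomas without *Zfp36* were compared, across all genes with enough counts, with epidermal cells from control papillomas. The comparison used the 6 tumor libraries of the 18 libraries in the series, chosen by their labels: 3 from Zfp36 ΔK14 mice, called ΔEP here, and 3 from Zfp36 fl/fl littermates. ΔEP mice carried floxed *Zfp36* alleles and a Cre recombinase under the keratin 14 promoter, so that the gene was lost in basal keratinocytes and the cells they give rise to and was kept in all other cells. The fl/fl mice carried the floxed alleles without Cre. Mice of both genotypes were adults on a C57BL/6 background and received DMBA, a mutagen that initiates skin tumors, and then repeated TPA, a phorbol ester that promotes them, on the shaved back. Papillomas at the same stage were digested, and living EpCAM+ CD45- CD140a- CD31- cells were sorted for RNA-Seq, although the labels name whole skin as the source. Neither the labels nor the methods say whether the 3 libraries of a group came from separate animals, so p-values measure the spread between these libraries, which may be partly technical.

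The product of *Zfp36* is tristetraprolin (TTP). It binds AU-rich elements, or AREs, of the 3′ untranslated region (3′ UTR) of mRNAs and recruits the enzymes that shorten the poly(A) tail, which speeds decay of the mRNA. Known targets include mRNAs of cytokines and growth factors that are made in short bursts, and TTP limits its own mRNA in the same way. Papillomas of mouse skin are benign outgrowths of keratinocytes in which RAS signaling, EGF receptor ligands, inflammation and new vessels are known to drive growth.

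The sites below show the element in some of the mRNAs on which the results turn, all of which hold it. These are *Zfp36* itself, the called genes *Pgf* and *Ero1l*, and genes of the hypoxia, growth factor, cytokine and protease groups described later. The called gene *Plekhg2* and others described later, such as *Adm*, *Adam12*, *S100a8* and *S100a9*, hold no heptamer TATTTAT in the 3′ UTR and are not shown. Each line gives 1 window of 29 bases from the longest annotated 3′ UTR (GENCODE, GRCm38), 5′ to 3′ on the strand of the gene, with the nonamer TTATTTATT in capitals or, where the 3′ UTR holds no nonamer, the heptamer TATTTAT.
Zfp36 (chr7:28376951-28376979, minus strand): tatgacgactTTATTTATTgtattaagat
Pgf (chr12:85167337-85167365, minus strand): cccagctcacgTATTTATtaccgtcaccc
Ero1l (chr14:45285482-45285510, minus strand): ttattagggccTATTTATactacaagtta
Plod2 (chr9:92607452-92607480, plus strand): gtgaaagttggTATTTATttctgtgcttt
Pfkfb3 (chr2:11472044-11472072, minus strand): gatgtgctatTTATTTATTtaatatgtat
Vegfa (chr17:46017166-46017194, minus strand): ttgttatcatTTATTTATTggtgctactg
Areg (chr5:91148382-91148410, plus strand): tatttaagtgTTATTTATTttatagctca
Lif (chr11:4272039-4272067, plus strand): aaaggggcctTTATTTATTatttaaaact
Cxcl1 (chr5:90892615-90892643, plus strand): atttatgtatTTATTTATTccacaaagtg
Tnf (chr17:35199689-35199717, minus strand): tttgcacttaTTATTTATTatttatttat
Inhba (chr13:16029046-16029074, plus strand): cttatatttaTTATTTATTggaatcaatc
Mmp9 (chr2:164955294-164955322, plus strand): tccagcccttTTATTTATTatgtatgagg
The 3′ UTR of *Tnf* held 8 heptamers, that of *Cxcl1* 6, those of *Lif* and *Inhba* 5 each, those of *Zfp36*, *Ero1l* and *Vegfa* 3 each, those of *Pgf*, *Plod2* and *Pfkfb3* 2 each, and those of *Areg* and *Mmp9* 1 each. The heptamer stood in the 3′ UTR of 31.3% of the 11451 tested genes with an annotated 3′ UTR, so its presence alone singles out no gene.

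Total counts ran from 2808550 to 7069660 over the tumor libraries, and fl/fl replicate 1 had the lowest total and the fewest genes with a count, 19219 against 23445 to 26710. Across genes its log2 levels correlated more closely with the 3 ΔEP libraries (Pearson's r from 0.927 to 0.955) than with fl/fl replicates 2 and 3 (0.867 and 0.876), which correlated with each other at 0.967. Ribosomal RNA took 10.9% of its counts, against 4.34% to 8.38% elsewhere. *Xist* differed within and between the groups. It measured 63.6 CPM (a count as a share of the library total, scaled to the same total over the 6 tumor libraries) in fl/fl replicate 1, 2635 and 2332 CPM in fl/fl replicates 2 and 3, and 642, 691 and 529 CPM in ΔEP replicates 1 to 3. Summed with the Y-linked genes *Ddx3y*, *Uty*, *Kdm5d* and *Eif2s3y*, the level was 63.6, 2635 and 2332 CPM in fl/fl and 642, 691 and 530 CPM in ΔEP replicates 1 to 3. Nearly all of each sum was therefore *Xist*, and the Y-linked genes were close to absent in all 6 libraries. *Zfp36* nevertheless stood at the control level in fl/fl replicate 1, so the library was kept, and values below are given by library.

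The keratinocyte label held in all 6 libraries. *Krt14*, which encodes a basal keratin, measured 13180, 3308 and 3636 CPM in fl/fl replicates 1 to 3 and 8729, 8834 and 8814 CPM in ΔEP replicates 1 to 3. Markers of the cells removed by the sort were low. *Ptprc*, which encodes CD45, ran from 0 to 1.26 CPM, and the summed level of 20 leukocyte markers was 88.9, 21.5 and 31.8 CPM in fl/fl and 90.5, 77.0 and 80.9 CPM in ΔEP tumors. The sum of 10 fibroblast markers was 135, 182 and 79.9 CPM in fl/fl and 259, 329 and 30.4 CPM in ΔEP tumors, and that of 10 endothelial markers ran from 15.8 to 37.5 CPM over all 6. Since each library is a bulk sample, fewer cells of a type and less RNA per cell cannot be told apart in any result that follows.

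Loss of the targeted gene was measured first. *Zfp36* (ENSMUSG00000044786, chromosome 7, 28376784 to 28380253, minus strand) measured 194, 151 and 212 CPM in fl/fl replicates 1 to 3 and 14.8, 10.1 and 7.68 CPM in ΔEP replicates 1 to 3. Every ΔEP library lay below every fl/fl library, and the residue came from at least 53 counts a library. The gene fell by 4.10 on the log2 scale (SE 0.30, edgeR adjusted p = 0.00882, here and below from its quasi-likelihood test with Benjamini-Hochberg adjustment). Its paralogs, which bind the same element, did not pass: *Zfp36l1* measured 190, 312 and 384 CPM in fl/fl and 233, 257 and 256 CPM in ΔEP tumors (edgeR adjusted p = 0.705). *Zfp36l2* measured 154, 135 and 116 CPM in fl/fl and 168, 180 and 176 CPM in ΔEP tumors, higher in every ΔEP library by 0.37 on the log2 scale (SE 0.18, edgeR adjusted p = 0.408). Of 21 tested genes for ARE-binding proteins and the deadenylation machinery, *Zfp36* was the single call, *Zfp36l2* alone was higher in every ΔEP library, and their median log2 fold change was −0.04.

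With all 6 libraries 4 of 14067 genes were called, which required both an adjusted p under 0.05 and a fold over 2 (0.0284%). *Zfp36* was the 1 gene that fell (0.00711%), and 3 genes rose (0.0213%): *Plekhg2*, *Pgf* and *Ero1l*. Unadjusted p lay under 0.05 for 1975 genes (14%). Without fl/fl replicate 1, calls numbered 2613 of 15463 genes (16.9%). Of these 1132 lay higher in ΔEP tumors (7.32% of genes tested) and 1481 lay lower (9.58%). Fl/fl replicate 1 was nearer to the ΔEP mean than to the mean of the other fl/fl libraries for 77.3% of the former and 93.7% of the latter. The share was 67.4% over the 14067 genes tested with all libraries, which is a different set. Some of the 15463 genes passed the filter on low counts only without fl/fl replicate 1, so these shares are partly set by the filter. Protein-coding genes made up 90.5% of the genes called higher and 62.4% of those called lower, against 82.6% of the 14067 genes tested with all libraries, and 476 of the latter calls were predicted gene models. The nuclear RNAs *Malat1* and *Neat1* together took 0.815% and 0.783% of counts in fl/fl replicates 2 and 3 and 0.180% to 0.418% in the other 4 libraries. The part of RNA composition in these calls was not tested. Genes were therefore also described by whether the genotypes overlap. With all 6 libraries, the 3 ΔEP libraries all lay above the 3 fl/fl libraries for 1231 genes (8.75% of those tested) and all below them for 999 (7.1%), termed higher and lower in every ΔEP library. These counts are the background for each group below. For list counts called without fl/fl replicate 1, the background is the 7.32% higher and 9.58% lower of that fit. Where more members of a list were tested in that fit, some passed the filter on low counts only there, so such counts are partly set by the filter.

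**Figure D1:**
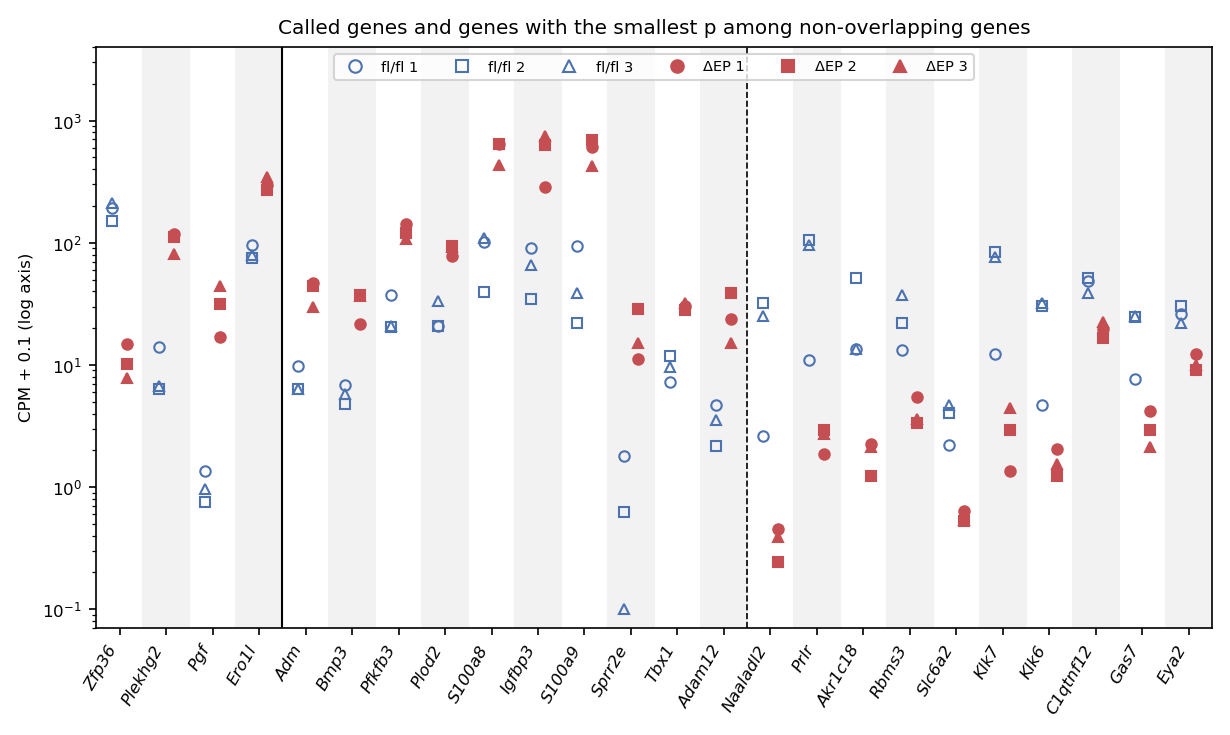
Levels of the 4 called genes (left of the solid line) and of the protein-coding genes with the smallest p among those whose genotypes do not overlap, 10 higher (middle) and 10 lower (right of the dashed line) in ΔEP tumors, as CPM + 0.1 on a log axis. Open blue symbols are fl/fl and filled red symbols ΔEP libraries, and shapes mark replicates 1 to 3. Fl/fl replicate 1 (open circle) lies between the other fl/fl libraries and the ΔEP libraries for *Naaladl2*, *Prlr*, *Klk7* and *Klk6*.

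Of the called genes, *Pgf* encodes placental growth factor, a ligand of the VEGF family. It measured 1.26, 0.653 and 0.859 CPM in fl/fl replicates 1 to 3, from 3, 5 and 3 counts, and 16.7, 31.6 and 44.4 CPM in ΔEP replicates 1 to 3 (log2 fold change 5.17, SE 0.51, edgeR adjusted p = 0.0286). The gene was close to absent in each control tumor, so the size of the fold rests on few counts, while all 3 ΔEP libraries held at least 94 counts. *Ero1l* encodes an oxidase of the endoplasmic reticulum that forms disulfide bonds in secreted proteins and is induced by low oxygen. It measured 95.6, 74.9 and 79.6 CPM in fl/fl and 296, 270 and 342 CPM in ΔEP tumors (log2 fold change 1.86, SE 0.20, edgeR adjusted p = 0.0415). The 3 libraries of each genotype lay close together, and the groups were far apart.

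*Plekhg2*, which encodes an exchange factor for small GTPases, measured 13.9, 6.27 and 6.58 CPM in fl/fl and 117, 112 and 80.3 CPM in ΔEP tumors (log2 fold change 3.59, SE 0.35, edgeR adjusted p = 0.0286). It lies 4185 bases from *Zfp36* on chromosome 7 (28359604 to 28372599) and on the same strand. Of the 10 genes tested within 100 kb of *Zfp36*, only these 2 had genotypes that did not overlap, and none of the other genes had an unadjusted p under 0.05. *Rps16*, which encodes a ribosomal protein and lies beyond *Plekhg2*, measured 457, 361 and 411 CPM in fl/fl and 477, 349 and 382 CPM in ΔEP tumors. Whether transcription through the recombined *Zfp36* locus contributes reads to *Plekhg2* was not tested. In treated skin next to tumors the neighbor also lay higher in every ΔEP library, at 145, 301 and 107 CPM against 19.9, 18.8 and 22.4 CPM in fl/fl (log2 fold change 3.17, edgeR adjusted p = 0.221, scaled over the 6 treated libraries).

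All 4 calls held without fl/fl replicate 1, but each was lost when some other library was left out. *Zfp36* was not called without fl/fl replicate 3 or ΔEP replicates 2 or 3 (edgeR adjusted p from 0.0574 to 0.210), and *Pgf* without fl/fl replicates 2 or 3 or ΔEP replicates 2 or 3 (0.0929 to 0.244). *Plekhg2* and *Ero1l* were not called without any 1 of the 5 libraries other than fl/fl replicate 1 (*Plekhg2*, 0.0545 to 0.244; *Ero1l*, 0.0623 to 0.294).

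Grouped into 27 program lists of 636 genes, of which 563 were tested, 109 genes were higher and 29 lower in every ΔEP library. Over all 14067 genes tested, 1231 were higher and 999 lower (8.75% and 7.1%). The lists were chosen with earlier results of these data known, so their shares are described beside those of all genes and were not tested. The plot of program levels shows 3 patterns, described after the values were seen. Hypoxia, glycolysis and angiogenic genes were high in all 3 ΔEP tumors. For glycolysis, however, the level of fl/fl replicate 1 (0.09) lay nearer to ΔEP replicate 2 (0.22) than to fl/fl replicates 2 and 3 (−0.72 and −0.64). Cytokines, EGF receptor ligands and matrix proteases were highest in ΔEP replicates 2 and 3. Basal, cell cycle and sebaceous lipid genes set fl/fl replicates 2 and 3 apart from the other 4 libraries, fl/fl replicate 1 included.

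**Figure D2:**
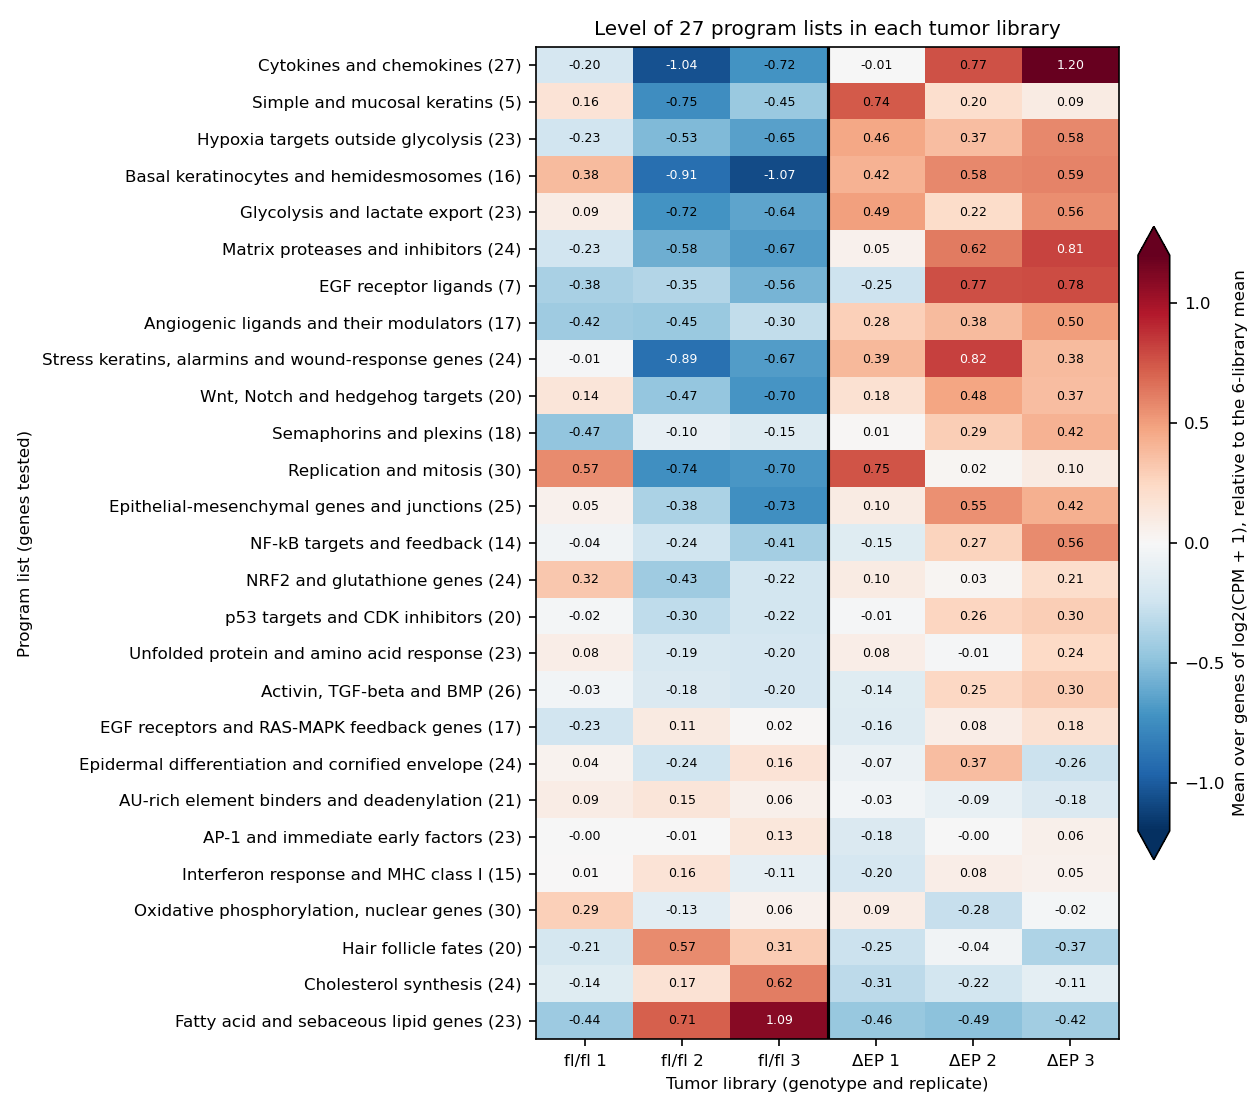
Level of each program list in each tumor library, as the mean over its tested genes of log2(CPM + 1) relative to the mean over the 6 libraries, with lists ordered by their median log2 fold change and the number of genes tested in brackets. The value of fl/fl replicate 1 lies below all 3 ΔEP values for hypoxia targets (−0.23) and beside them for basal keratinocyte genes (0.38) and sebaceous lipid genes (−0.44).

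**Figure D3:**
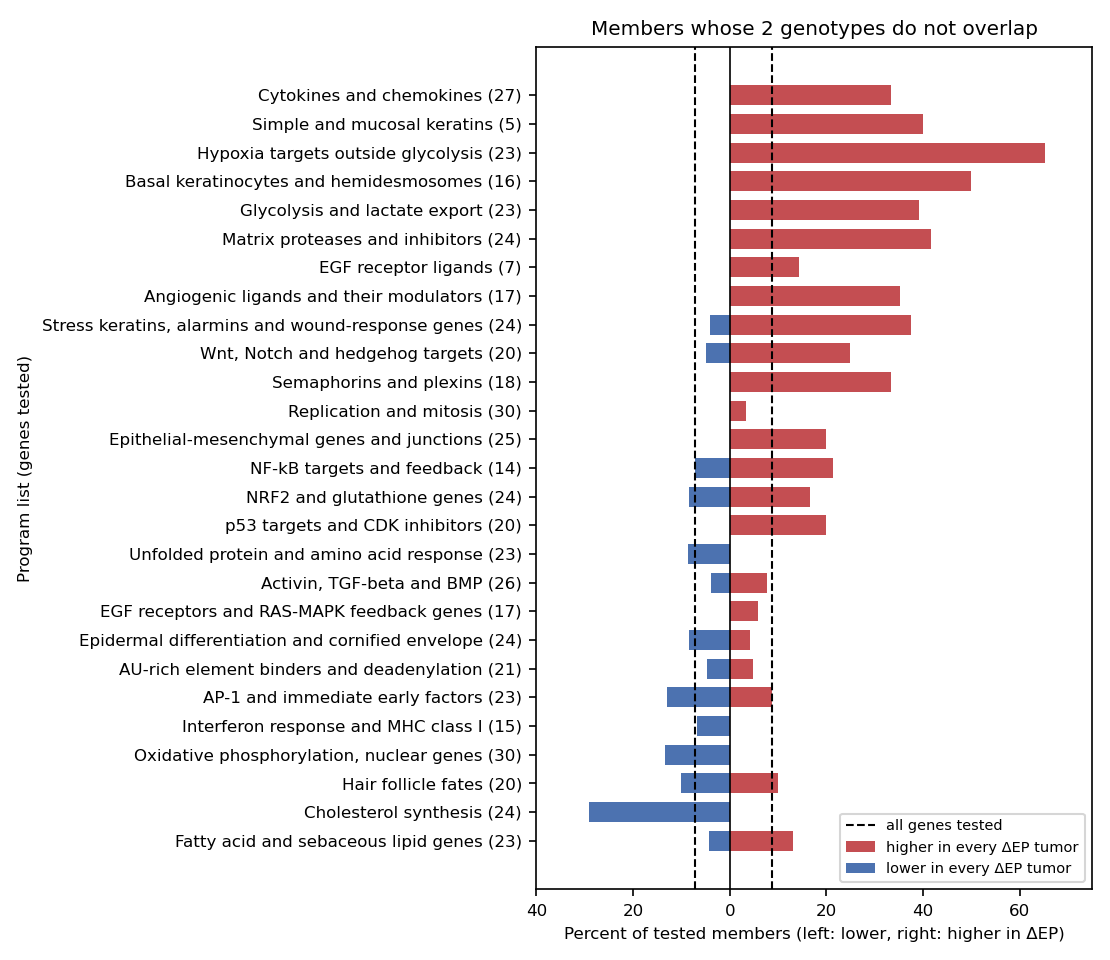
Percent of the tested members of each program list that were higher (red, to the right) or lower (blue, to the left) in every ΔEP tumor than in every fl/fl tumor. Dashed lines mark the same percent over all 14067 genes tested, 8.75% higher and 7.1% lower, and hypoxia targets reach 65.2% higher. The lists were chosen with earlier results of these data known, so distances from the dashed lines may partly reflect that choice.

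The response to low oxygen is run by HIF factors, which raise genes for oxygen sensing, collagen hydroxylation, mitophagy, glycolysis and vessel growth. Of 23 hypoxia targets outside glycolysis, 15 were higher and none lower in every ΔEP library (65.2%, beside 8.75% of all genes), with 1 call, *Ero1l*, and a median log2 fold change of 0.92 against −0.02 over all genes. *Plod2*, a lysyl hydroxylase that prepares collagen for cross-linking, measured 20.6, 20.9 and 33.2 CPM in fl/fl and 77.2, 94.3 and 91.3 CPM in ΔEP tumors (log2 fold change 1.81, SE 0.25, edgeR adjusted p = 0.120). *Mxi1*, a MYC antagonist, measured 42.5, 64.4 and 44.1 CPM in fl/fl and 110, 147 and 173 CPM in ΔEP tumors (1.5, SE 0.26, edgeR adjusted p = 0.144). In both genes fl/fl replicate 1 lay within or beside the other fl/fl libraries, and the genotypes were well apart.

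*Hilpda*, which blocks lipolysis at lipid droplets, measured 6.74, 3.13 and 1.15 CPM in fl/fl and 12.3, 17.8 and 22.0 CPM in ΔEP tumors, again without overlap (edgeR adjusted p = 0.185). *Bnip3*, a mitophagy receptor named after its values were seen, measured 29.1, 5.74 and 6.58 CPM in fl/fl and 85.7, 46.7 and 64.8 CPM in ΔEP tumors, with fl/fl replicate 1 between the groups. The group was not uniform: *Car9*, which encodes a carbonic anhydrase and was also named after its values were seen, measured 5.90, 32.0 and 51.0 CPM in fl/fl and 11.4, 8.07 and 12.6 CPM in ΔEP tumors. Fl/fl replicates 2 and 3 were therefore the high libraries for *Car9*, the reverse of the other members shown. Without fl/fl replicate 1, 12 of the 23 were called higher and *Car9* lower in ΔEP tumors.

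Of 23 tested genes of glycolysis and lactate export, 9 were higher and none lower in every ΔEP library (39.1%), with a median log2 fold change of 0.78. *Pfkfb3*, whose product makes the activator of phosphofructokinase, measured 37.1, 20.2 and 20.6 CPM in fl/fl and 143, 119 and 108 CPM in ΔEP tumors (log2 fold change 2.27, SE 0.28, edgeR adjusted p = 0.0787). *Slc2a1*, the glucose transporter GLUT1, measured 563, 244 and 244 CPM in fl/fl and 863, 700 and 869 CPM in ΔEP tumors (1.21, SE 0.35, edgeR adjusted p = 0.232). *Hk2*, the first enzyme of the path, measured 316, 358 and 283 CPM in fl/fl and 469, 527 and 512 CPM in ΔEP tumors (0.66, SE 0.18, edgeR adjusted p = 0.228). The 3 genes had genotypes without overlap, yet fl/fl replicate 1 lay between the other fl/fl libraries and the ΔEP libraries for *Slc2a1* but not for *Hk2*. Over the list as a whole fl/fl replicate 1 was nearer to ΔEP tumors for 18 of 23 genes (78.3%, against 67.4% of all genes tested), and 13 genes were called higher without it. *Ldha*, which makes lactate and was named after its values were seen, was an example, with 1465, 505 and 536 CPM in fl/fl and 2074, 1128 and 1498 CPM in ΔEP tumors.

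**Figure D4:**
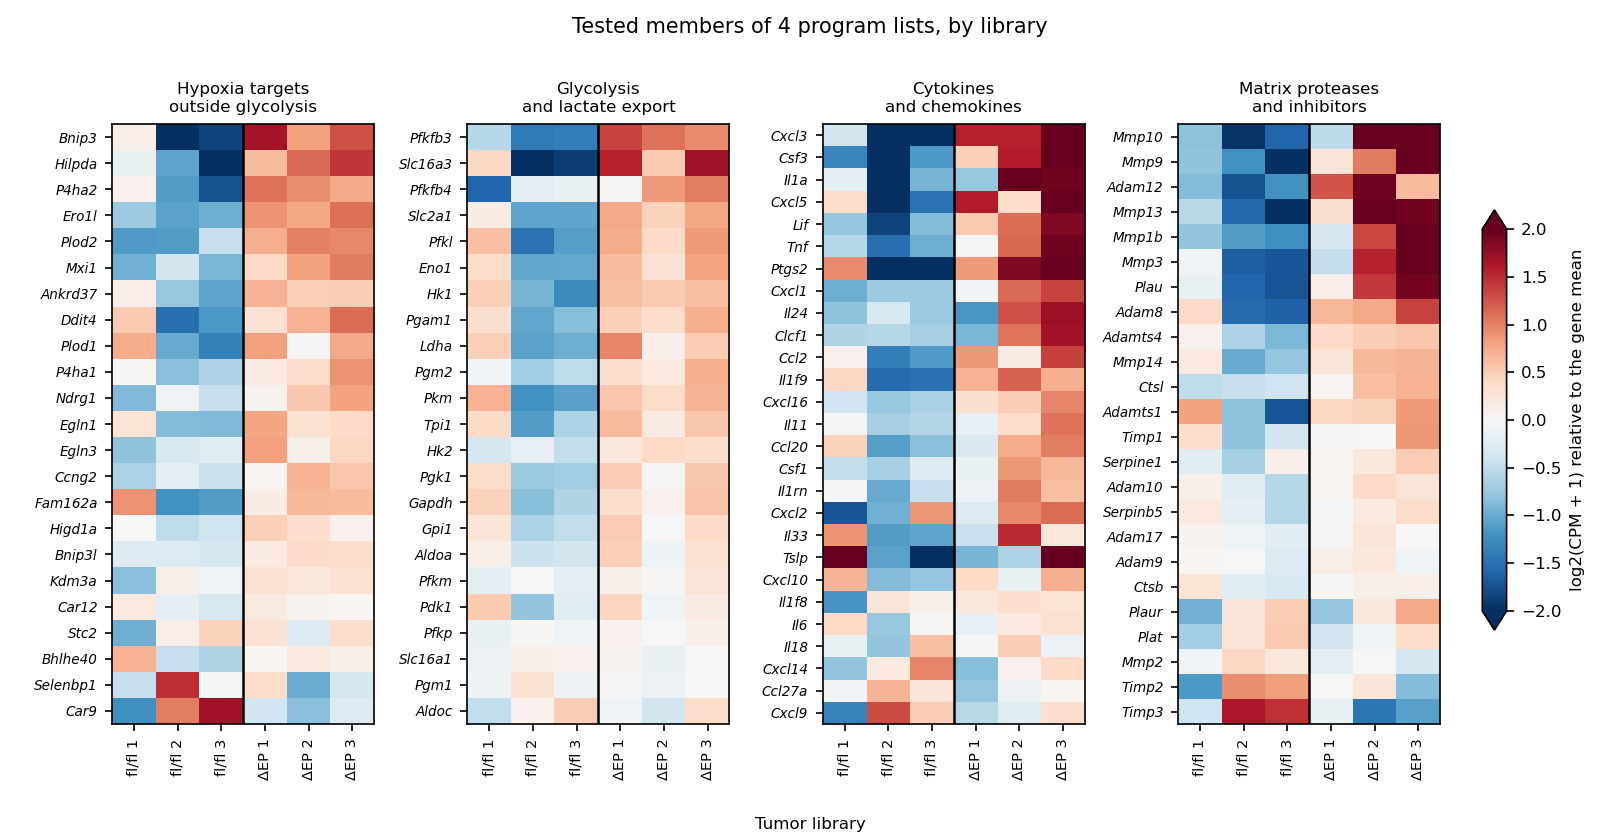
Every tested member of the hypoxia, glycolysis, cytokine and matrix protease lists in each tumor library, as log2(CPM + 1) relative to the mean of the gene over the 6 libraries (colors end at 2 and −2), with genes ordered by log2 fold change. Most hypoxia genes are red in all 3 ΔEP columns, while the cytokine and protease genes with the largest folds, such as *Mmp10* and *Il1a*, are red in ΔEP replicates 2 and 3 and paler or blue in replicate 1.

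Angiogenic ligands and their modulators gave 6 genes of 17 that were higher in every ΔEP library and none lower (35.3%), with a median log2 fold change of 0.64. Beside *Pgf*, *Adm*, which encodes the vasodilator adrenomedullin, measured 9.69, 6.27 and 6.30 CPM in fl/fl and 46.9, 43.9 and 29.7 CPM in ΔEP tumors (log2 fold change 2.47, SE 0.29, edgeR adjusted p = 0.0739). *Vegfa*, the main growth factor of vessels, measured 152, 83.9 and 92.5 CPM in fl/fl and 288, 392 and 456 CPM in ΔEP tumors (1.79, SE 0.29, edgeR adjusted p = 0.144). *Nrp1*, a coreceptor for VEGF and semaphorins, measured 5.90, 2.61 and 4.01 CPM in fl/fl and 14.9, 16.6 and 21.2 CPM in ΔEP tumors (2.15, SE 0.35, edgeR adjusted p = 0.144). All 3 had groups that did not overlap. The inhibitor *Thbs1*, named after its values were seen, was high in fl/fl replicates 2 and 3 alone, at 839, 2230 and 1887 CPM in fl/fl and 1036, 985 and 920 CPM in ΔEP tumors. When fl/fl replicate 1 was left out, 6 of the 17 were called higher and 1 lower. Of these genes, *Vegfa* and *Pgf* carry the heptamer in the 3′ UTR and *Adm* does not.

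EGF receptor ligands are released by keratinocytes and act on the same and neighboring cells. *Areg*, which encodes amphiregulin, measured 264, 122 and 132 CPM in fl/fl and 321, 769 and 875 CPM in ΔEP tumors (log2 fold change 1.93, SE 0.44, edgeR adjusted p = 0.190), the single ligand of 7 tested without overlap. *Ereg* (epiregulin) measured 277, 206 and 203 CPM in fl/fl and 268, 900 and 824 CPM in ΔEP tumors (edgeR adjusted p = 0.228). *Epgn* (epigen) measured 322, 204 and 124 CPM in fl/fl and 286, 605 and 628 CPM in ΔEP tumors (edgeR adjusted p = 0.262). For these ligands ΔEP replicate 1 stood at or just above the control level and ΔEP replicates 2 and 3 stood well above it. Calls without fl/fl replicate 1 were 3 of the 7, all higher. The list level in ΔEP replicate 1 lay 1.03 log2 units below the mean of the other ΔEP libraries. Receptor and RAS-MAPK feedback genes showed little: 1 of 17, the receptor gene *Erbb2*, was higher in every ΔEP library (5.88%), and the median log2 fold change was 0.06.

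Of 27 tested cytokines and chemokines, 9 were higher and none lower in every ΔEP library (33.3%), with a median log2 fold change of 1.22. *Csf3*, which encodes the granulocyte growth factor G-CSF, measured 34.5, 17.1 and 38.6 CPM in fl/fl and 121, 261 and 563 CPM in ΔEP tumors (log2 fold change 3.41, SE 0.58, edgeR adjusted p = 0.144). *Lif*, an IL-6 family cytokine, measured 14.3, 6.27 and 13.4 CPM in fl/fl and 37.0, 56.3 and 94.1 CPM in ΔEP tumors (2.51, SE 0.44, edgeR adjusted p = 0.157). *Cxcl1*, a neutrophil attractant, measured 200, 238 and 236 CPM in fl/fl and 378, 860 and 999 CPM in ΔEP tumors (1.73, SE 0.35, edgeR adjusted p = 0.175). In each of these genes the genotypes did not overlap and ΔEP replicate 1 was the lowest of the ΔEP libraries. *Tnf*, the best known TTP target, followed the same order, at 29.9, 15.1 and 22.3 CPM in fl/fl and 43.7, 100 and 174 CPM in ΔEP tumors (2.27, SE 0.49, edgeR adjusted p = 0.183).

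Calls among 29 cytokine genes without fl/fl replicate 1 were 17 higher and none lower, where 27 had passed the filter on low counts with all libraries. With all libraries other members overlapped. *Il1a*, an alarm cytokine of keratinocytes, measured 29.5, 5.35 and 17.2 CPM in fl/fl and 19.6, 182 and 130 CPM in ΔEP tumors, with ΔEP replicate 1 inside the control range. *Cxcl2*, a neutrophil attractant, measured 43.0, 72.5 and 263 CPM in fl/fl and 117, 278 and 312 CPM in ΔEP tumors (edgeR adjusted p = 0.555), where fl/fl replicate 3 was the high control. *Csf2* and *Il1b* were too low to test. *Csf2*, which encodes GM-CSF, had 0 counts in all 3 fl/fl libraries and 2, 10 and 34 counts in ΔEP replicates 1 to 3, and *Il1b* had at most 9 counts in any tumor library. Of 14 tested NF-kB targets and feedback genes, 3 were higher and *Nfkbiz* was lower in every ΔEP library (21.4% and 7.14%, beside 8.75% and 7.1% of all genes). *Nfkbiz*, a nuclear cofactor of NF-kB, measured 313, 424 and 401 CPM in fl/fl and 165, 222 and 195 CPM in ΔEP tumors (log2 fold change −0.97, SE 0.21, edgeR adjusted p = 0.183), so it lay below the controls where *Tnf* lay above them.

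Matrix proteases cut collagen and other matrix proteins and release growth factors. Of 24 tested proteases and inhibitors, 10 were higher and none lower in every ΔEP library (41.7%), with a median log2 fold change of 0.76. *Adam12*, a membrane protease, measured 4.63, 2.09 and 3.44 CPM in fl/fl and 23.6, 38.5 and 14.9 CPM in ΔEP tumors (log2 fold change 3.01, SE 0.46, edgeR adjusted p = 0.144). *Mmp13*, a collagenase, measured 136, 66.8 and 40.6 CPM in fl/fl and 252, 900 and 766 CPM in ΔEP tumors (2.99, SE 0.58, edgeR adjusted p = 0.175). *Mmp10*, a stromelysin, measured 43.8, 19.2 and 25.2 CPM in fl/fl and 54.0, 394 and 467 CPM in ΔEP tumors (3.40, SE 0.74, edgeR adjusted p = 0.183). The MMP genes did not overlap between genotypes, but ΔEP replicate 1 was only just above the highest control for *Mmp10*. *Mmp9*, a gelatinase, measured 22.8, 16.8 and 8.30 CPM in fl/fl and 48.9, 84.5 and 304 CPM in ΔEP tumors (3.20, SE 0.71, edgeR adjusted p = 0.183). Of 26 genes of the protease list, 12 were called higher and 2 lower without fl/fl replicate 1. Among genes of epithelial-mesenchymal transition and junctions, 5 of 25 were higher in every ΔEP library (20%), led by *Vim* at 14.3, 8.75 and 2.86 CPM in fl/fl and 26.5, 39.1 and 37.4 CPM in ΔEP tumors. *Vim* is also made by fibroblasts, whose marker sums are given above, and their part in its level was not tested.

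Semaphorins are guidance cues that act through plexins and neuropilins. Of 18 tested genes, 6 were higher and none lower in every ΔEP library (33.3%), with a median log2 fold change of 0.53. *Sema4b*, a membrane-bound member, measured 72, 55.1 and 46.6 CPM in fl/fl and 112, 159 and 220 CPM in ΔEP tumors (log2 fold change 1.5, SE 0.29, edgeR adjusted p = 0.175). *Sema6d* measured 34.5, 15.1 and 14.6 CPM in fl/fl and 67.4, 64.4 and 144 CPM in ΔEP tumors (2.14, SE 0.45, edgeR adjusted p = 0.183). *Sema4d* measured 32.4, 18.7 and 16.0 CPM in fl/fl and 44.3, 69.1 and 64.5 CPM in ΔEP tumors (1.43, SE 0.31, edgeR adjusted p = 0.183). The groups did not overlap in these 3 genes. *Sema3e*, a ligand of plexin D1 named after its values were seen, went the other way outside fl/fl replicate 1, at 2.95, 53.1 and 88.2 CPM in fl/fl and 5.16, 7.79 and 12.6 CPM in ΔEP tumors. Leaving out fl/fl replicate 1 gave 7 higher and 4 lower calls of 20. In the activin, TGF-beta and BMP list, 2 of 26 genes were higher in every ΔEP library (7.69%, near the 8.75% of all genes) and 1, *Id3*, an inhibitor of helix-loop-helix factors, was lower (75, 113 and 97.6 CPM in fl/fl, against 53.3, 68.4 and 63.2 CPM in ΔEP tumors). The higher genes were *Inhba*, the subunit of activin A, at 64.0, 87.6 and 45.5 CPM in fl/fl and 138, 306 and 310 CPM in ΔEP tumors, and its inhibitor *Fst*, at 553, 346 and 321 CPM in fl/fl and 661, 904 and 1078 CPM in ΔEP tumors. Of 20 tested Wnt, Notch and hedgehog genes, 5 were higher and 1 lower in every ΔEP library (25% and 5%, beside 8.75% and 7.1% of all genes). The higher genes included *Notch1* (302, 204 and 183 CPM in fl/fl, against 395, 421 and 582 CPM in ΔEP tumors).

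Of the genes taken from the study's text, most of them its candidate targets from these samples, 14 were tested, 11 were higher in every ΔEP library (78.6%) and *Pgf* was called, with a median log2 fold change of 2.03. *Cxcl2*, *Il1b* and *Adam12* are named elsewhere in that text, *Cxcl2* for skin samples. Since the study picked most of the genes on these libraries, the count is no independent evidence of their direction.

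Secreted factors outside these groups were among the genes with the smallest p. *Igfbp3*, a binding protein of insulin-like growth factors, measured 90.6, 34.7 and 66.1 CPM in fl/fl and 285, 634 and 744 CPM in ΔEP tumors (log2 fold change 3.13, SE 0.46, edgeR adjusted p = 0.144). *Bmp3*, an antagonist of other BMP ligands, measured 6.74, 4.70 and 5.72 CPM in fl/fl and 21.3, 37.1 and 36.4 CPM in ΔEP tumors (2.5, SE 0.31, edgeR adjusted p = 0.0787). Both were lowest in ΔEP replicate 1 among the ΔEP libraries, and neither overlapped between genotypes.

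Alarmins and wound-response genes of keratinocytes gave 9 genes that were higher and 1 lower in every ΔEP library, of 24 tested (37.5% and 4.17%). *S100a8* and *S100a9* encode the calprotectin subunits of stressed keratinocytes and neutrophils. *S100a8* measured 102, 39.5 and 108 CPM in fl/fl and 648, 639 and 435 CPM in ΔEP tumors (log2 fold change 2.79, SE 0.40, edgeR adjusted p = 0.144). *S100a9* measured 93.9, 21.8 and 38.9 CPM in fl/fl and 610, 697 and 426 CPM in ΔEP tumors (3.51, SE 0.52, edgeR adjusted p = 0.144). All 3 ΔEP libraries were high for both genes, ΔEP replicate 1 as much as the others. The mean level of the 5 tested leukocyte markers, on the relative log2 scale of the plot of program levels, was 0.04, −0.67 and −0.22 in fl/fl and 0.33, 0.18 and 0.35 in ΔEP tumors. Of the 5 markers only 1, the MHC class II chain gene *Cd74*, had a log2 fold change above 0 and was higher in every ΔEP library. The median log2 fold change of the 5 was −0.04, so the higher mean does not describe the markers as a set. The neutrophil marker *Ly6g* ran from 0 to 0.421 CPM. The part of leukocytes in the alarmin values was not tested. In the fit that left out fl/fl replicate 1, 16 of 25 genes of the list were called higher and 3 lower. *Sprr2h* and *Sprr2e*, small proteins of the cornified envelope from a family of near-identical genes whose reads may be shared, were also higher in every ΔEP library, at 19.7, 45.1 and 28.1 CPM against 7.58, 3.26 and 4.29 CPM for *Sprr2h*.

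The member that was lower was *Klk6*, which encodes a serine protease of the skin. It measured 4.63, 30.3 and 31.8 CPM in fl/fl and 1.96, 1.13 and 1.45 CPM in ΔEP tumors (log2 fold change −3.90, SE 0.68, edgeR adjusted p = 0.153). *Klk7*, a related protease that cuts corneodesmosomes, measured 12.2, 84.2 and 75.8 CPM in fl/fl and 1.24, 2.83 and 4.35 CPM in ΔEP tumors (−4.34, SE 0.74, edgeR adjusted p = 0.144). Fl/fl replicate 1 lay above every ΔEP library for both genes but far below the other controls. The same held for *Prlr*, the prolactin receptor, at 10.9, 104 and 96.5 CPM in fl/fl and 1.78, 2.83 and 2.61 CPM in ΔEP tumors (−4.87, SE 0.78, edgeR adjusted p = 0.144), and for *Naaladl2*, at 2.53, 32.0 and 24.9 CPM in fl/fl and 0.355, 0.141 and 0.290 CPM in ΔEP tumors.

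Single regulatory and antigen presentation genes were also among those lower in every ΔEP library, at list shares near the 7.1% of all genes. Of 20 tested hair follicle genes 2, *Sox9* among them, were lower and 2 higher (10% each). Of 15 tested interferon and MHC class I genes *B2m* alone was lower (6.67%) and none was higher. *Sox9*, a transcription factor of hair follicle stem cells, measured 285, 387 and 589 CPM in fl/fl and 202, 217 and 239 CPM in ΔEP tumors (log2 fold change −0.94, SE 0.28, edgeR adjusted p = 0.238). *Egr1*, an immediate early factor downstream of growth factor signaling, measured 397, 360 and 584 CPM in fl/fl and 210, 263 and 258 CPM in ΔEP tumors (−0.88, SE 0.24, edgeR adjusted p = 0.226). *B2m*, the light chain of MHC class I, measured 874, 1114 and 1112 CPM in fl/fl and 640, 707 and 711 CPM in ΔEP tumors (−0.59, SE 0.19, edgeR adjusted p = 0.257). None passed the test. On the log2 scale fl/fl replicate 1 was nearer to its own group for *Egr1* and *B2m* and nearer to ΔEP tumors for *Sox9*. In the list of AP-1 and immediate early factors, *Egr1* and *Egr2* were among the 3 that were lower and *Ier3*, an early response gene, among the 2 that were higher in every ΔEP library of 23 tested (13.0% and 8.70%). *Ier3* measured 262, 184 and 156 CPM in fl/fl and 350, 799 and 941 CPM in ΔEP tumors.

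Lipid genes set fl/fl replicates 2 and 3 apart from all other libraries. Of 9 sebocyte markers, the sum was 21.5 CPM in fl/fl replicate 1, 556 and 810 CPM in fl/fl replicates 2 and 3, and 25.1, 24.9 and 22.3 CPM in ΔEP replicates 1 to 3. *Scd1*, the desaturase that makes oleate, measured 165, 2744 and 5308 CPM in fl/fl and 157, 100 and 158 CPM in ΔEP tumors (log2 fold change −4.31, SE 1.01, edgeR adjusted p = 0.193). *Pparg*, the factor that drives sebocyte differentiation, measured 0.843, 51.3 and 73.3 CPM in fl/fl and 1.78, 0 and 0.290 CPM in ΔEP tumors (−6.02, SE 1.38, edgeR adjusted p = 0.192). *Elovl6*, a fatty acid elongase, measured 40.4, 874 and 1594 CPM in fl/fl and 60.4, 43.6 and 40.3 CPM in ΔEP tumors (−4.12, SE 1.03, edgeR adjusted p = 0.209). In all 3 genes fl/fl replicate 1 stood at the ΔEP level. Of 23 tested fatty acid and sebaceous lipid genes 1 was lower and 3 higher in every ΔEP library (4.35% and 13.0%, beside 7.1% and 8.75% of all genes). A further 9 members of the list did not pass the filter on low counts, such as *Awat2*, a wax synthase named after its values were seen, at 0, 27.8 and 40.6 CPM in fl/fl and 0.533, 0.283 and 0.145 CPM in ΔEP tumors.

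Without fl/fl replicate 1, 30 lipid genes were tested, and 17 were called lower and 3 higher, beside 9.58% and 7.32% of all genes in that fit. Some of the 30 passed the filter only there, through the 2 fl/fl libraries in which they were high. The lipid difference thus rests on the contrast of fl/fl replicates 2 and 3 with the rest. *Krt79*, a keratin of the upper follicle and sebaceous duct, followed it, at 9.69, 633 and 690 CPM in fl/fl and 18.5, 7.64 and 6.38 CPM in ΔEP tumors. Whether the share of sebaceous cells in the sorted papillomas accounts for these values was not tested.

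Cholesterol synthesis differed in form. Of 24 genes 7 were lower and none higher in every ΔEP library (29.2%, beside 7.1% of all genes), with a median log2 fold change of −0.65. *Fdps*, which makes farnesyl diphosphate, measured 75, 79.0 and 124 CPM in fl/fl and 43.4, 44.7 and 54.4 CPM in ΔEP tumors (log2 fold change −0.96, SE 0.25, edgeR adjusted p = 0.209). *Lss*, which closes the sterol ring, measured 30.8, 68.8 and 93.6 CPM in fl/fl and 25.6, 18.3 and 23.6 CPM in ΔEP tumors (−1.52, SE 0.38, edgeR adjusted p = 0.209). *Nsdhl*, a later step of the path, measured 33.3, 36.8 and 64.7 CPM in fl/fl and 25.8, 19.7 and 22.0 CPM in ΔEP tumors (−1.0, SE 0.29, edgeR adjusted p = 0.237). For *Fdps* and *Nsdhl* fl/fl replicate 1 lay beside fl/fl replicate 2, unlike the sebaceous genes. Once fl/fl replicate 1 was left out, 7 of the 24 were called lower and 1 higher. Nuclear genes of oxidative phosphorylation showed 4 of 30 lower in every ΔEP library (13.3%) with a median of −0.16, and all 30 had an unadjusted p of 0.05 or more.

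**Figure D5:**
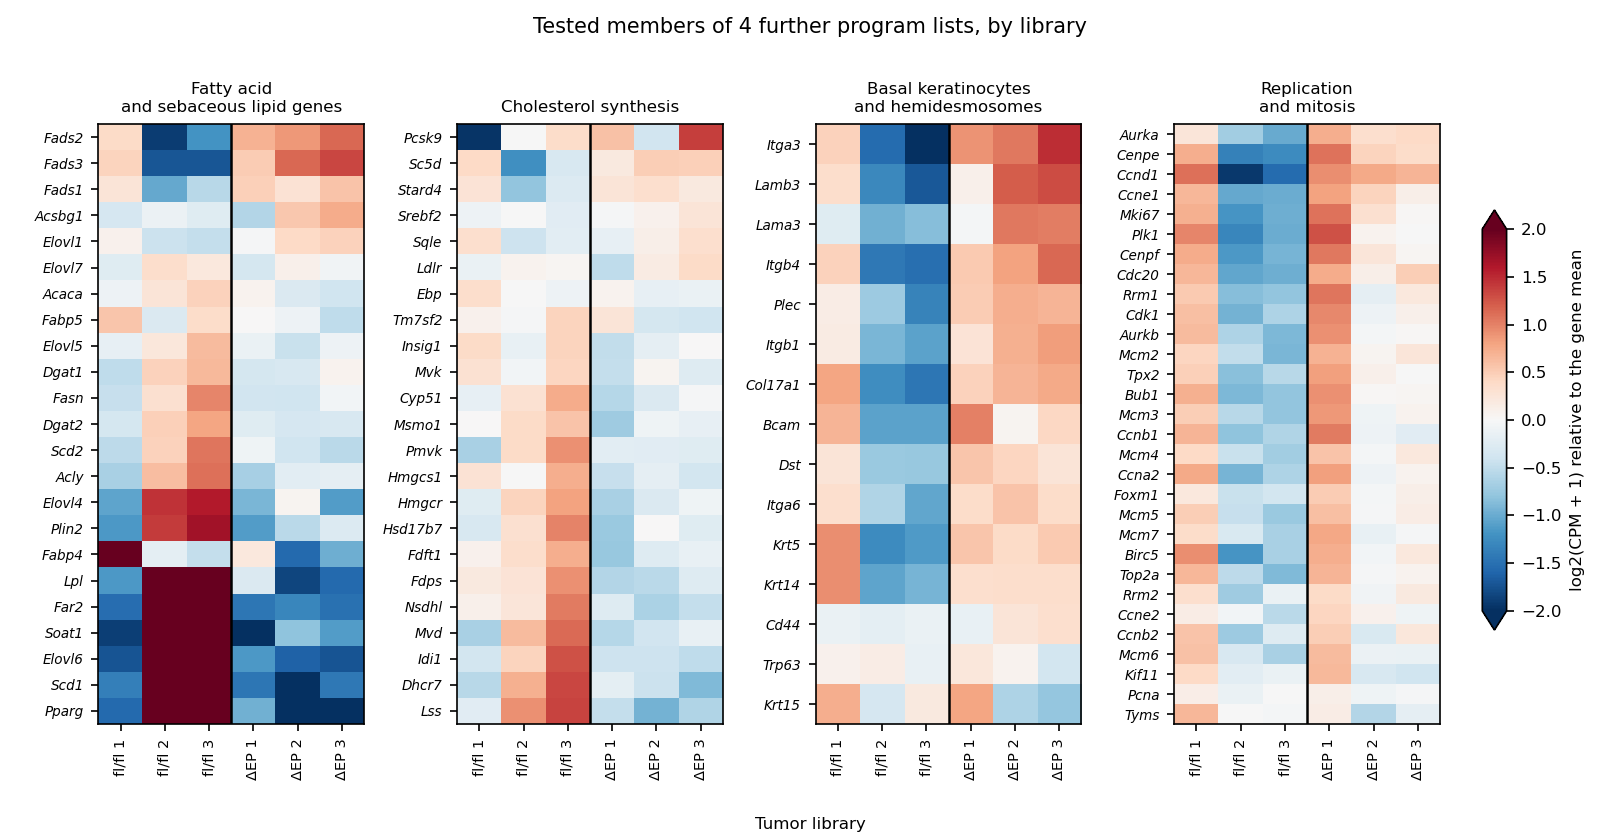
Tested members of the sebaceous lipid, cholesterol, basal keratinocyte and cell cycle lists in each tumor library, as log2(CPM + 1) relative to the mean of the gene over the 6 libraries (colors end at 2 and −2). For most genes of the sebaceous, basal and cell cycle panels the column of fl/fl replicate 1 has the colors of ΔEP replicate 1, and fl/fl replicates 2 and 3 have the opposite colors, whereas in the cholesterol panel fl/fl replicate 1 is closer to white.

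Basal keratinocytes hold the epidermis to its basement membrane through laminin 332, integrins and hemidesmosomes. Of 16 genes of this kind 8 were higher and none lower in every ΔEP library (50.0%), with a median log2 fold change of 0.85. *Lama3*, a chain of laminin 332, measured 668, 405 and 438 CPM in fl/fl and 767, 1635 and 1605 CPM in ΔEP tumors (log2 fold change 1.41, SE 0.34, edgeR adjusted p = 0.201). *Itgb1*, the integrin beta 1 subunit, measured 957, 449 and 406 CPM in fl/fl and 1026, 1398 and 1513 CPM in ΔEP tumors (1.12, SE 0.35, edgeR adjusted p = 0.254). In both genes fl/fl replicate 1 lay just below ΔEP replicate 1, so the absence of overlap rests on a small gap. *Krt14*, given above, was highest in fl/fl replicate 1, while *Trp63*, the master factor of the lineage, named after its values were seen, overlapped between genotypes at 499, 521 and 425 CPM in fl/fl and 549, 494 and 366 CPM in ΔEP tumors. Without fl/fl replicate 1, 13 of the 16 were called higher in ΔEP tumors.

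Cell cycle genes overlapped between genotypes for the most part. Of 30 replication and mitosis genes 1, *Aurka*, a mitotic kinase, was higher in every ΔEP library (3.33%, below the 8.75% of all genes), although 29 of 30 had a log2 fold change above 0 and the median was 0.51. For 29 of the 30 fl/fl replicate 1 was nearer to ΔEP tumors than to the other fl/fl libraries. *Cenpe*, a kinetochore motor, measured 95.2, 21.7 and 23.2 CPM in fl/fl and 122, 77.7 and 73.4 CPM in ΔEP tumors (log2 fold change 0.99, SE 0.56, edgeR adjusted p = 0.455). *Mki67*, the common proliferation marker, named after its values were seen, measured 414, 111 and 127 CPM in fl/fl and 536, 313 and 256 CPM in ΔEP tumors. Both fl/fl replicate 1 and ΔEP replicate 1 were high, and 18 genes were called higher once fl/fl replicate 1 was left out.

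Differentiation genes were close to balance. Of 24 tested genes of the cornified envelope 1 was higher and 2 were lower in every ΔEP library (4.17% and 8.33%, beside 8.75% and 7.1% of all genes). The median log2 fold change was 0.00. *Tgm1*, the enzyme that cross-links the envelope, measured 29.9, 26.2 and 23.5 CPM in fl/fl and 40.5, 45.6 and 42.5 CPM in ΔEP tumors (log2 fold change 0.70, SE 0.20, edgeR adjusted p = 0.232). *Calm4*, a calcium-binding protein of differentiating keratinocytes, measured 188, 98.2 and 121 CPM in fl/fl and 78.0, 73.2 and 45.8 CPM in ΔEP tumors (−1.04, SE 0.31, edgeR adjusted p = 0.239).

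The ARE was set beside these groups. Among genes that were higher in every ΔEP library 379 of 1090 with an annotated 3′ UTR held the heptamer (34.8%), and among genes that were lower 217 of 764 did (28.4%), against 31.3% of all genes tested. The median 3′ UTR was 1300 bases for the former, 1064 for the latter and 1206 for all. The nonamer stood in 9.82%, 7.07% and 8.46%. Among genes called higher without fl/fl replicate 1 the heptamer share was 28.4%, and among those called lower it was 30.8%, the reverse order, although both the libraries and the rule differ there. Heptamers per kb of 3′ UTR numbered 0.339 in genes higher and 0.251 in genes lower in every ΔEP library, 0.336 and 0.261 in genes called higher and lower without fl/fl replicate 1, and 0.296 in all genes tested. Most genes that were higher in every ΔEP library therefore held no heptamer, *Plekhg2*, *Adm*, *S100a8* and *S100a9* among them. Of the 14 tested genes that the study named 12 held it, but the study chose most of them partly by an ARE score, so that share was largely set by the selection.

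The difference between genotypes in tumors was tested against that in treated skin, nontumoral skin next to the papillomas, in 12 libraries. Of 17017 genes 2 were called (0.0118%), and 1352 were called without tumor fl/fl replicate 1 (7.53%). Both calls were higher in ΔEP tumors. *Tbx1*, a transcription factor of the hair follicle, measured 7.16, 11.8 and 9.45 CPM in fl/fl tumors and 30.0, 28.2 and 31.8 CPM in ΔEP tumors. In treated skin it measured 53.1, 58.5 and 54.3 CPM in fl/fl and 29.1, 39.4 and 35.6 CPM in ΔEP (difference of the log2 fold changes 2.36, SE 0.28, edgeR adjusted p = 0.0217). *Pfkfb3*, higher in every ΔEP tumor, measured 15.3, 19.1 and 16.0 CPM in fl/fl and 11.3, 14.6 and 16.0 CPM in ΔEP treated skin (difference 2.59, SE 0.35, edgeR adjusted p = 0.0476). *Zfp36* itself had a log2 fold change of −4.10 in tumors and −3.99 in treated skin (difference −0.06, SE 0.44, edgeR adjusted p = 0.969).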

How the data were processed

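The authors deposited 1 table of raw read counts per gene (52636 Ensembl genes) with a column for each library, and its columns of the authors' own comparisons were not used. RNA of the sorted cells was purified with the RNeasy Plus Micro kit, and libraries were made with the Ovation SoLo system. The submitters' processing notes list Trimmomatic 0.36, STAR 2.5.3, HTSeq 0.9.1, DESeq2 and the build mm10. How strand and duplicate reads were treated is not given in the sources used here, so overlapping, antisense and near-identical genes, such as *Gm44710* with *Zfp36* or the *Sprr2* family, are uncertain.

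The deposited counts of the 6 tumor libraries were fitted with edgeR 4.0.16 in R 4.3.3 (quasi-likelihood test, filterByExpr filter, TMM scaling, two-sided, Benjamini-Hochberg adjustment over all genes tested). Calls needed an adjusted p under 0.05 together with a fold over 2. Each SE was derived from the test, as the absolute log2 fold change divided by the square root of its F statistic. CPM values were scaled by TMM over the 6 tumor libraries, and those of treated skin over the 6 treated libraries. The CPM values of the 2 stages therefore do not share a scaling with each other or with the test between them. List levels used log2(CPM + 1). In single fits of all libraries, mock-treated ΔEP replicates 2 and 3, whose columns hold identical counts, were counted as 1 sample.

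The members and lists were chosen with earlier results of these data known. Named genes were *Zfp36*, *Zfp36l1* and *Zfp36l2*, up to 10 called genes in each direction, up to 10 further protein-coding genes in each direction with the smallest p among those whose genotypes did not overlap (predicted models left out), up to 4 members of each list with the smallest p, the genes the study named, and genes tested within 100 kb of *Zfp36*. Others are described as named after their values were seen. Motifs were sought on the sense strand of the longest annotated 3′ UTR of each gene in GENCODE's annotation of GRCm38.

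Alternatives were DESeq2 1.42.0, edgeR's exact test, limma 3.58.1 (voom with library weights), RLE scaling, other filters, a robust fit, 1 fit over all libraries, a block for the replicate number, and leaving out each library. On counts simulated for the tumor comparison (13817 genes, 200 changed), the quasi-likelihood test found 98% of 8-fold and 84% of 4-fold changes with 13 wrong calls of 195. The simulation drew every library independently around the same gene means, so none was shifted across many genes as fl/fl replicate 1 was. These rates may therefore not hold for the deposited counts. Figures were drawn with matplotlib 3.10.9. Some members of the lists are not reported here by name.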

Additional observations from a re-analysis of the deposited data

Results flagged for a closer look

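The effect of the genotype in tumors differed from that in treated skin for 2 genes by the interaction test of edgeR. *Tbx1* had a log2 fold change of 1.63 in tumors and −0.67 in treated skin, a difference of 2.36 (SE 0.28, edgeR adjusted p = 0.0217), and was higher in 3 of 3 ΔEP tumors and lower in 3 of 3 ΔEP treated samples than in every fl/fl library of that stage. *Pfkfb3* had 2.27 in tumors and −0.26 in treated skin, a difference of 2.59 (SE 0.35, edgeR adjusted p = 0.0476), and was higher in 3 of 3 ΔEP tumors, while the treated groups overlapped. No gene passed in edgeR when any 1 of the 6 treated libraries, tumor fl/fl replicate 3 or tumor ΔEP replicates 2 or 3 was left out, with 1538 to 2480 genes at an unadjusted p under 0.05, while DESeq2 with all libraries called 230.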

How the results depend on the processing

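Against the 4 genes called between tumors, DESeq2 called 366, the exact test of edgeR 328, 1 fit over all libraries 122, the fit with no filter on low counts 1393 and limma voom with library weights 1887 (979 higher, 908 lower). The exact test and DESeq2 also made 48 wrong calls of 240 and 46 of 236 on the simulated tumor counts, and voom 14 of 194, beside 13 of 195 by the quasi-likelihood test. No simulated library stood apart as fl/fl replicate 1 did, so these rates cannot tell which of the real calls are wrong. RLE scaling, the robust fit and a mean count of at least 10 each called 4. With libraries left out in turn calls ran from 0 to 2613, the latter without fl/fl replicate 1, and leaving out fl/fl replicate 2 gave 1 call and ΔEP replicate 1 gave 7. The interaction with treated skin gave 2 calls, 230 with DESeq2, 0 in the single fit of all libraries, 1003 with no filter, 1 with RLE scaling, and 0 to 1352 with libraries left out. Where edgeR called 0 with a library left out, unadjusted p lay under 0.05 for 957 to 1352 genes between tumors.

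The replicate number as a block gave 0 calls between tumors (2138 genes at an unadjusted p under 0.05, 366 calls by DESeq2 without the block) and 0 in the interaction (1692 genes). Same-numbered libraries deviated together at r = 0.19, 0.30 and −0.07, so pairing was not established.

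The ARE share of genes higher in every ΔEP library was 34.8% for the heptamer and 9.82% for the nonamer, and 28.4% held the heptamer among genes called higher without fl/fl replicate 1. Of 133 named genes over 15 alternatives, 9 values changed sign and none of these was past the threshold, namely *Gm44710* with voom (−0.25), *Rps16* in the fit over all libraries (0.11) and with no filter (0.15), and single libraries left out. Across the latter *Krt13* ran from −0.72 to 3.31, *Timm50* from −0.11 to 0.60, *Gm44710* from −0.069 to 0.52 and *Rps16* from −0.13 to 0.11. List medians were taken only with RLE scaling, with the other filters and with each tumor library left out. Of the 27 lists, 22 kept the sign of their median in all of these. Causes of these changes were not tested. Genes of few counts, such as *Pgf* in fl/fl tumors, have imprecise folds.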

Other observations

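MHC class II genes, chosen after their values were seen, were higher in every ΔEP tumor, without a call. *Cd74*, the invariant chain, measured 24.0, 9.14 and 13.2 CPM in fl/fl replicates 1 to 3 and 66.5, 54.6 and 41.9 CPM in ΔEP replicates 1 to 3 (log2 fold change 1.86, SE 0.37, edgeR adjusted p = 0.175). *H2-Eb1*, a class II beta chain, measured 3.37, 2.35 and 2.58 CPM in fl/fl and 9.78, 7.36 and 5.66 CPM in ΔEP tumors (1.49, SE 0.36, edgeR adjusted p = 0.204). *H2-Aa* and *H2-Ab1* were likewise without overlap, at no more than 13.2 CPM. These 4 genes belong to a list of 7 Langerhans cell markers, of which 6 were tested and 4 were higher in every ΔEP library (66.7%, median log2 fold change 1.47), and 5 of 6 were called higher without fl/fl replicate 1. In the same list *Epcam* and *Mfge8* overlapped between genotypes, and *Cd207* had 0 counts in all 6 libraries. The part of Langerhans cells or other antigen-presenting cells in these values was not tested.

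In treated skin the alarmins lay further from their controls than in tumors. *S100a8* measured 1.54, 3.09 and 0.934 CPM in fl/fl and 38.6, 89.4 and 287 CPM in ΔEP treated skin (log2 fold change 6.32, against 2.79 in tumors), but the difference between stages did not pass the test (−3.44, SE 0.94, edgeR adjusted p = 0.207). *Klk6*, lower in every ΔEP tumor, was higher in every ΔEP treated sample, at 7.33, 53.7 and 11.5 CPM against 5.40, 2.06 and 0.934 CPM (difference of the log2 fold changes −6.90, SE 1.23, edgeR adjusted p = 0.124). *Igfbp3*, higher in every ΔEP tumor, was lower in every ΔEP treated sample, at 36.9, 86.6 and 87.8 CPM against 134, 265 and 104 CPM (4.43, SE 0.69, edgeR adjusted p = 0.0683). Neither passed the threshold.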
